A study of Rattus norvegicus with 8 samples.

Results

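The genes described here are 10 genes of the integrated stress response: the transcription factor gene Atf4 and 9 genes that act with it or downstream of it. They were measured by their probe sets on Affymetrix arrays of left ventricles from female, late-pregnant rats. A probe set was taken where the platform annotation gives it exactly 1 gene symbol and that symbol is one of the 10. This gave 11 probe sets for 9 genes among 28826 probe sets, 15209 of which carry a single symbol. Psat1 and Mthfd2 had 2 probe sets each, and Sesn2, a stress-induced inhibitor of mTORC1, had none under this rule and is not analysed here.

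All hearts had undergone ischemia and then reperfusion. The vehicle group, called placebo in the labels, has 3 samples. The treated group has 5 samples, which the labels call ILPD. The series' design text gives the treatment as a single bolus of 5 mg/kg and abbreviates it ITLD; that both abbreviations mean the Intralipid of the series title, an intravenous lipid emulsion, is assumed. Strain, age, the length of ischemia and reperfusion and any pooling of animals are not given in the sources used here. Because the labels do not tie each array to its own animal, p-values speak only of the spread among arrays, which may be technical. Hearts without ischemia were not analysed here, so no value below says how the injury itself moved these genes.

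On the log2 scale the array medians were 7.08 to 7.14 (placebo) and 7.16 to 7.20 (ILPD). Precision is limited by having 8 arrays. All 8 markers of ventricular cardiomyocytes were measured, and their mean over the list was 13.73 to 13.78 in placebo and 13.57 to 13.75 in ILPD. All 8 had a negative difference, with a median of -0.12, and none passed the test (limma; 2 had an unadjusted p under 0.05). The 4 smooth muscle markers all had a positive difference, with a median of 0.15, and none passed (2 had an unadjusted p under 0.05). Of 6 fibroblast markers 5 had a negative difference (median -0.13), and of 4 measured endothelial markers 3 had a positive one (median 0.09). None of these passed (limma, 1 of each list had an unadjusted p under 0.05). Of all 28826 probe sets, 5271 had an unadjusted p under 0.05 (limma), which is the background for such counts throughout. As bulk tissue was measured, fewer cells of a type and less RNA per cell cannot be told apart. Across all probe sets, the median difference was 0.06 where the mean log2 value was 7 to 8 and -0.12 where it was 10 to 12. It was -0.14 above 12, where all 8 ventricular cardiomyocyte markers lay, so their differences cannot be told apart from this trend. The members' differences are therefore also given after cyclic loess normalization, which removes such a trend with brightness.

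In the integrated stress response, a kinase that senses a particular stress phosphorylates the initiation factor eIF2. Phosphorylated eIF2 inhibits its exchange factor eIF2B, so that most translation slows while the mRNA of Atf4 is translated better. The ATF4 protein then switches on genes for amino acid supply and one-carbon metabolism, as well as Ddit3 (CHOP), Trib3 and Chac1. Ppp1r15a (GADD34) closes the loop by bringing a phosphatase to eIF2. In the heart the response is known from ischemia and from mitochondrial dysfunction. Much of the control of ATF4 is translational, and these arrays measured only transcripts.

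The 9 measured genes did not move together. Mthfd2, a mitochondrial enzyme of folate metabolism, rose in the ILPD hearts by 0.44 and 0.41 on the log2 scale in its 2 probe sets. The other 9 probe sets, of 8 genes, did not pass the test (limma, p-values adjusted over all probe sets by Benjamini-Hochberg, threshold 0.05). Of the 11 member probe sets, 2 passed, both of them higher in ILPD, against 2.81% of all probe sets in either direction and 1.96% higher and 0.857% lower in ILPD. An unadjusted p under 0.05 (limma) was found for 4 of the 11, against 5271 of all 28826. The same 2 were the member probe sets whose groups did not overlap, which happened for 12.4% of all probe sets (7.95% with ILPD higher, 4.42% with ILPD lower). The median difference over the 11 was 0.08, against 0.02 over all probe sets, and 8 of the 11 differences were positive, as were 58.5% of all. This median was 0.03 after cyclic loess, against -0.0009 over all probe sets. After quantile normalization it was 0.01, against -0.0128. Both calls were lost without placebo array 2. Only that of Mthfd2 probe set 10863512 was kept without placebo array 1 or 3 or without ILPD array 2 or 4, and without placebo array 1 Ppp1r15a passed as well.

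**Figure D1:**
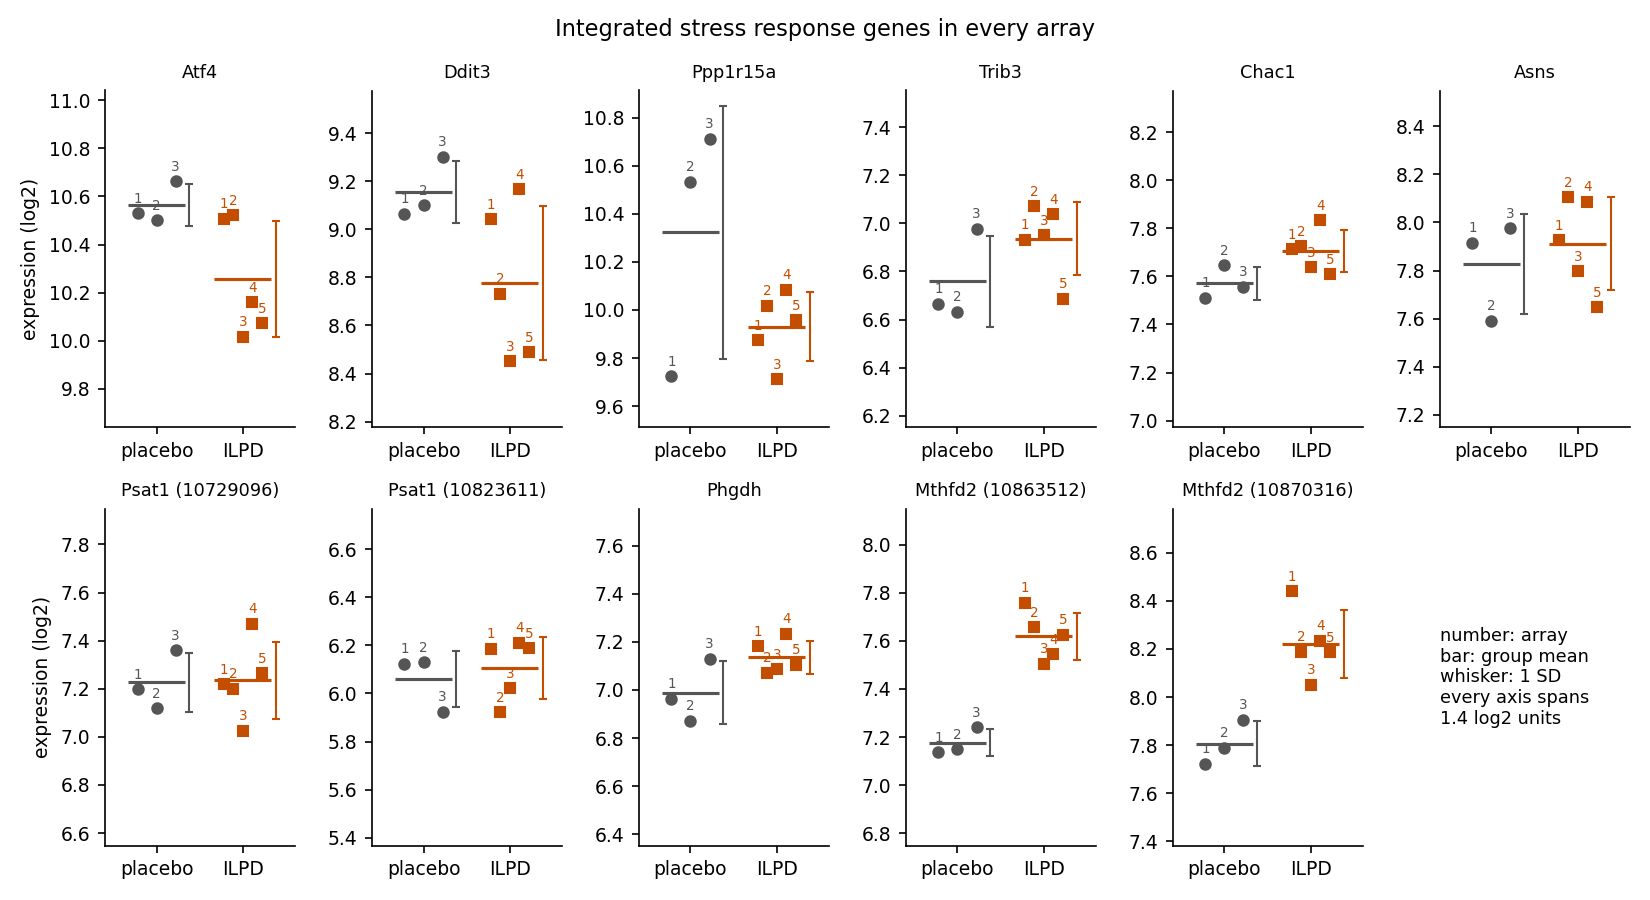
Log2 expression (vertical axis, 1.4 log2 units in every panel) of the 11 member probe sets in 3 placebo (circles) and 5 ILPD (squares) arrays, numbered as in the labels, with group means (bars) and 1 SD (whiskers). Only in the panels of Mthfd2 do all 5 ILPD arrays lie above all 3 placebo arrays, and in the Ppp1r15a panel placebo array 1, at 9.73, lies apart from the other placebo arrays.

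Atf4 itself had a lower mean in ILPD but did not pass the test. Its probe set (10897760) read 10.53, 10.50 and 10.66 in the placebo arrays and 10.51, 10.52, 10.02, 10.16 and 10.07 in ILPD arrays 1 to 5. ILPD arrays 1 and 2 lay within the placebo range, and the other 3 lay below it. The means were 10.57 ± 0.09 (SD, n = 3) and 10.26 ± 0.24 (SD, n = 5), a difference of -0.31 (SE 0.12, 95% interval -0.59 to -0.03, limma adjusted p = 0.224). After cyclic loess normalization the difference was -0.22, with the adjusted p at 0.402. The interval, which is not adjusted for the number of probe sets, covers falls in the transcript of up to 0.59.

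Ddit3 encodes CHOP, a transcription factor that ATF4 induces and that promotes cell death under lasting stress. Its probe set (10895861) read 9.06, 9.10 and 9.30 in placebo and 9.04, 8.73, 8.45, 9.17 and 8.49 in ILPD. ILPD array 4 lay within the placebo range, array 1 was just below it, and arrays 3 and 5 were the lowest. The difference of -0.38 (SE 0.16, 95% interval -0.74 to -0.02) did not pass (limma adjusted p = 0.249), and it was -0.37 after cyclic loess. The SD was 0.32 among ILPD arrays and 0.13 among placebo arrays.

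Ppp1r15a encodes GADD34, the inducible subunit that directs protein phosphatase 1 to eIF2. Its probe set (10721865) read 9.73, 10.53 and 10.71 in placebo and 9.87, 10.02, 9.71, 10.08 and 9.96 in ILPD. Placebo array 1 fell among the ILPD arrays, while placebo arrays 2 and 3 lay above all 5 of them. The difference was -0.39 (SE 0.19, 95% interval -0.82 to 0.03, limma adjusted p = 0.313), and -0.32 after cyclic loess. It rested on single arrays: without placebo array 1 it was -0.69 and passed (adjusted p = 0.0211), without placebo array 3 it was -0.20 (adjusted p = 0.630), and without placebo array 2 it was -0.29 (adjusted p = 0.599). The ILPD arrays spread little, with an SD of 0.14 against 0.53 in placebo.

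The promoter of Ppp1r15a is shown because it was the only member promoter with the cAMP response element, to which ATF and CREB proteins are known to bind. The letters are the 250 bases before the RefSeq transcription start (GRCr8, chr1:105139597-105139846, minus strand), 5′ to 3′, with the element in capitals.
Ppp1r15a: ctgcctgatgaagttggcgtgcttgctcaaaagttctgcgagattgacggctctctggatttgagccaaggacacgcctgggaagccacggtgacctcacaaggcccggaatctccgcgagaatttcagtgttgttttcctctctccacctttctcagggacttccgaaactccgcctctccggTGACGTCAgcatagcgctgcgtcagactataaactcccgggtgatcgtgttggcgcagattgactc
The element (TGACGTCA, identical on both strands) starts 66 bases before the transcription start, and 1.59% of 33469 rat promoter windows of this length hold it. A match of letters describes the sequence and does not show that a factor was bound in these hearts.

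Trib3 and Chac1 lie downstream of ATF4 and CHOP, and neither passed the test. Trib3 encodes a pseudokinase that binds AKT and ATF4. Its probe set (10850775) read 6.67, 6.63 and 6.98 in placebo and ranged from 6.69 to 7.07, with a median of 6.95, in ILPD. The difference was 0.18 (95% interval -0.05 to 0.41, limma adjusted p = 0.411). Placebo array 3 lay among the ILPD arrays, and ILPD arrays 1, 3 and 5 lay within the placebo range. Chac1 encodes an enzyme that degrades glutathione. Its probe set (10838823) read 7.51, 7.65 and 7.56 in placebo and from 7.61 to 7.83 in ILPD, a difference of 0.13 (95% interval -0.01 to 0.28, adjusted p = 0.316). All 5 ILPD arrays exceeded the placebo mean of 7.57 for Chac1, and 3 exceeded the highest placebo array. After cyclic loess the differences were 0.11 for Trib3 and 0.07 for Chac1.

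Trib3 and Chac1 were also the members whose promoters held the C/EBP-ATF response element, through which ATF4 with a C/EBP partner is known to act. The sequences below are the 250 bases before the RefSeq start (GRCr8) of Trib3 (chr3:161275534-161275783, minus strand) and Chac1 (chr3:126795881-126796130, plus strand), 5′ to 3′. Mthfd2 (chr4:117380351-117380600, minus strand), the member that rose, is shown with them for comparison. Capitals mark the element.
Trib3: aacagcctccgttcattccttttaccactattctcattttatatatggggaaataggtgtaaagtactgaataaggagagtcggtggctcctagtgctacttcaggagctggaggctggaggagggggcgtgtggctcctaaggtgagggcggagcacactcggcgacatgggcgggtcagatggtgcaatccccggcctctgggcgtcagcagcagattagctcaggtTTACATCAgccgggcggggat
Chac1: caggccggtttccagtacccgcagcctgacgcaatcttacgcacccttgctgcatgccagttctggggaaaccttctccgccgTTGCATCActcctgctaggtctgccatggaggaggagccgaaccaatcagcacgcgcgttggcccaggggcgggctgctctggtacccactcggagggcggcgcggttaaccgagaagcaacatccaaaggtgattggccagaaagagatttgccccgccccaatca
Mthfd2: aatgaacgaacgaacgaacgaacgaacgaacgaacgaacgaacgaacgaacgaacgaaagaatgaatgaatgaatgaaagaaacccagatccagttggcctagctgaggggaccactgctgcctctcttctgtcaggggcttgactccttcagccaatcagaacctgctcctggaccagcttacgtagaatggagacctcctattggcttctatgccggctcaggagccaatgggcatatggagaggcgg
The element was searched as TGATGNAA on both strands, and both matches lie on the opposite strand, as TTACATCA in Trib3 and TTGCATCA in Chac1. They start 21 bases before the transcription start of Trib3 and 167 bases before that of Chac1. Of all 33469 promoter windows, 3.40% hold the element. In Mthfd2 and 6 further members (Atf4, Ddit3, Asns, Sesn2, Psat1 and Phgdh) neither element was found in this window, which says nothing of sequence outside it.

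The enzymes of serine and asparagine synthesis showed small differences that did not pass. Asns makes asparagine from aspartate. Its probe set (10860951) ranged from 7.59 to 7.98 in placebo and from 7.65 to 8.11 in ILPD, a difference of 0.08 (95% interval -0.19 to 0.36, limma adjusted p = 0.779), which was -0.03 without placebo array 2. After cyclic loess the difference was 0.03. Phgdh catalyses the first step from glycolysis into serine. Its probe set (10825328) read 6.96, 6.87 and 7.13 in placebo and from 7.07 to 7.23 in ILPD. The difference of 0.15 (95% interval -0.01 to 0.30, adjusted p = 0.303) had all 5 ILPD arrays above the placebo mean of 6.99 and fell to 0.08 after cyclic loess. Psat1, the aminotransferase of the next step, differed by 0.01 (probe set 10729096, 95% interval -0.20 to 0.22) and 0.05 (probe set 10823611, 95% interval -0.14 to 0.23), with adjusted p = 0.974 and 0.826. The sign of the former turned after either normalization (-0.06 with cyclic loess, -0.07 with quantile), and the latter was 0.02 with cyclic loess.

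Mthfd2 uses one-carbon units from serine inside mitochondria and is a known ATF4 target. Probe set 10863512 read 7.14, 7.15 and 7.24 in placebo and 7.76, 7.66, 7.50, 7.55 and 7.62 in ILPD. Every ILPD array lay above every placebo array. The means were 7.18 ± 0.06 (SD, n = 3) and 7.62 ± 0.10 (SD, n = 5), a 1.36-fold difference (0.44, SE 0.07, 95% interval 0.29 to 0.59, limma adjusted p = 0.0111). Probe set 10870316 read 7.72, 7.79 and 7.91 in placebo and 8.44, 8.19, 8.05, 8.23 and 8.19 in ILPD, again with no overlap. There the difference was 1.33-fold (0.41, SE 0.08, 95% interval 0.23 to 0.60, adjusted p = 0.0351). ILPD array 1 was the highest and ILPD array 3 the lowest in both. Both probe sets carry the same RefSeq accession in the annotation, but where each lies was not analysed here. Whether probe set 10870316 reads a copy of Mthfd2, or probe set 10823611 one of Psat1, was not tested. The 2 probe sets of a gene were read on the same arrays, so they are not independent measurements of it.

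The calls of Mthfd2 depended on single arrays, while the size of its difference moved little. Over 14 alternatives the difference of probe set 10863512 was 0.36 to 0.47. Among the removals of single arrays, its call was lost without placebo array 2 (adjusted p = 0.0576). The difference of probe set 10870316 was 0.35 to 0.46, and its call was lost without any single placebo array or without ILPD array 2 or 4, with an adjusted p of 0.0707 to 0.121. It was also lost after cyclic loess (difference 0.37, limma adjusted p = 0.0629) and after quantile normalization (0.345, limma adjusted p = 0.0787). For probe set 10863512 the difference was 0.38 after cyclic loess and 0.36 after quantile normalization, and its call was kept. In a limma fit with the replicate number as a block, the calls of both probe sets were lost (adjusted p = 0.0651 for 10863512 and 0.135 for 10870316).

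**Figure D2:**
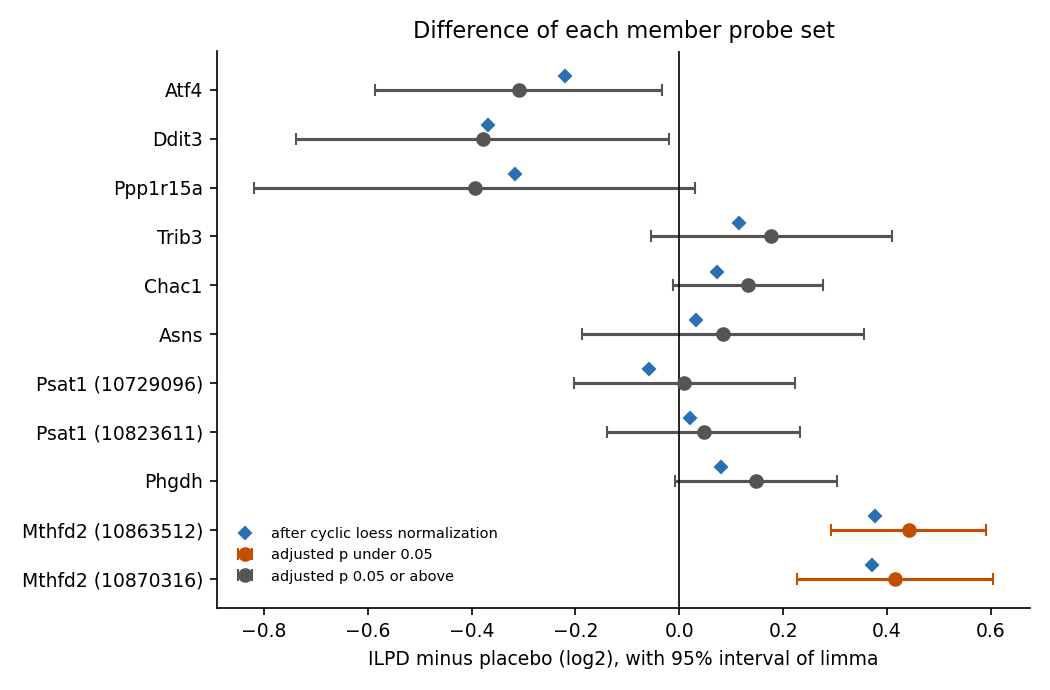
Difference between ILPD and placebo (log2, horizontal axis) for each member probe set with the 95% interval from limma (whiskers), and the difference after cyclic loess normalization (diamonds, no interval drawn). The Mthfd2 probe sets, at 0.44 and 0.41, are the ones that passed, and Atf4, Ddit3 and Ppp1r15a are the ones on the negative side.

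The arrays of a group differed in where the members stood. Placebo array 3 gave the highest placebo value in 9 of 11 member probe sets, and its array median, 7.14, was also the highest of that group. In ILPD, array 4 was highest in 6 of 11, array 2 in 3 and array 1 in 2, while array 3 was lowest in 6, array 5 in 3 and array 2 in 2. The mean over the 11 probe sets was 7.87, 7.91 and 8.07 in placebo and 8.07, 8.02, 7.84, 8.10 and 7.89 in ILPD. These ranges overlapped.

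Leukocyte markers were higher in some arrays than in others within each group, and 2 of 18 were called between the groups. Of all probe sets, 2.81% were called in either direction and 1.96% as higher in ILPD. All 6 neutrophil markers had a positive difference, from 0.48 to 1.32, though none passed the test (limma; 4 had an unadjusted p under 0.05). Their mean over the list was 8.54, 7.78 and 7.90 in placebo and 9.50, 9.29, 8.37, 9.10 and 8.52 in ILPD, so that the groups overlapped. ILPD arrays 1, 2 and 4 were the higher ones in ILPD, as they were in 5 of the 11 member probe sets (Atf4, Ddit3, Asns, Chac1 and Mthfd2 probe set 10870316, the last by a narrow margin). How often other probe sets show this order was not counted. In placebo, array 1 had the highest neutrophil mean, but the highest value in 0 of the 11 member probe sets and the lowest in 5. Of 7 monocyte and macrophage markers, 6 had a positive difference and Cx3cr1, a chemokine receptor, rose by 0.76 (limma adjusted p = 0.0311). Ccr2 had a larger difference, 1.21, that did not pass (limma adjusted p = 0.0624), and Adgre1 differed by -0.17. The list mean was 8.65 to 8.96 in placebo and 8.95 to 9.32 in ILPD, with overlap. Of 5 markers of T and NK cells, all had a positive difference and Klrd1, a receptor of NK cells, rose by 0.52 (limma adjusted p = 0.0304). The other 4, Cd3e, Cd3d, Cd8a and Nkg7, differed by 0.03 to 0.09 without passing, and in each of them the groups overlapped. The list mean, which includes Klrd1, was 7.10 to 7.24 in placebo and 7.28 to 7.40 in ILPD, with no overlap. Both calls were lost without any single placebo array (adjusted p of 0.0720 to 0.123), and that of Cx3cr1 also without ILPD array 2 (0.0672). After quantile normalization both were lost as well (0.0621 for Cx3cr1 and 0.0750 for Klrd1), and after cyclic loess that of Klrd1 (0.0695). No marker reads 0 on this scale. The part of these cells in the rise of Mthfd2, or in the spread of Ddit3, was not tested.

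**Figure D3:**
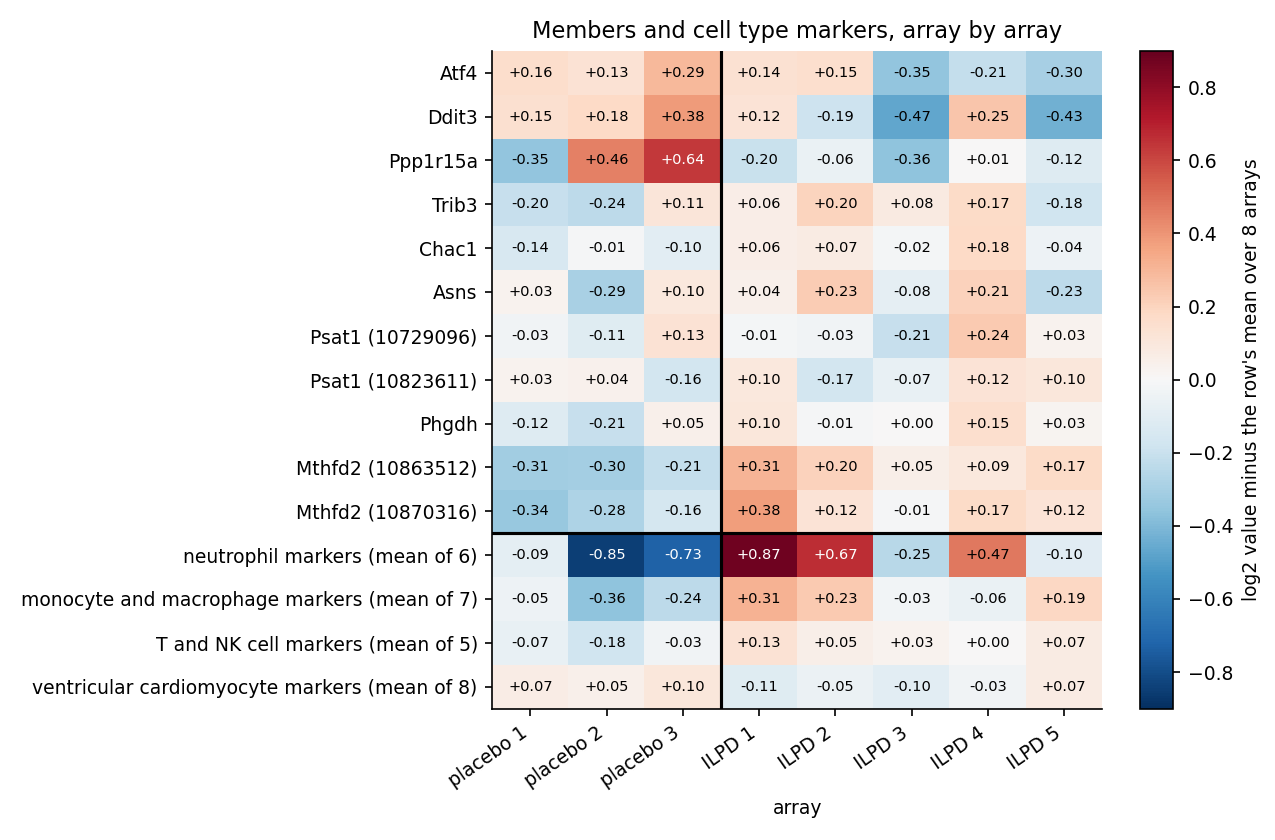
Log2 value minus the mean of the row over 8 arrays (colour and printed number) for the 11 member probe sets and, below the line, for the mean of 4 lists of cell type markers, in 3 placebo and 5 ILPD arrays. Mthfd2 is below its row mean in all 3 placebo arrays, Ddit3 is lowest in ILPD arrays 3 and 5, and neutrophil markers are highest in ILPD arrays 1, 2 and 4.

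Around the members, 7 lists of further pathway genes held 85 measured genes, of which 2 rose, 3 fell and 80 did not pass, against 2.81% of all probe sets called. The count of calls, 5, was 2 without placebo array 1, 2 or 3 or without ILPD array 2, and 3 without ILPD array 3 or 4. The median difference over the 85 was -0.05. Counts of genes with an unadjusted p under 0.05 are to be set beside 5271 of all 28826 probe sets (limma). Upstream, 0 of 18 genes for the eIF2 kinases, eIF2, eIF2B and their regulators passed (limma; 3 had an unadjusted p under 0.05), with differences from -0.20 to 0.37 and a median of -0.03 (0.05 after cyclic loess). None of the 4 kinases passed. Eif2ak2 (PKR, which senses double-stranded RNA) differed by 0.23 (limma adjusted p = 0.337), Eif2ak4 (GCN2, which senses uncharged tRNA) by 0.12 (0.05 after cyclic loess), Eif2ak1 (HRI, which senses heme) by 0.08 (0.17 after cyclic loess) and Eif2ak3 (PERK, of the endoplasmic reticulum) by -0.05. Impact, an inhibitor of GCN2, came nearest to a call. It read 7.75, 7.96 and 7.98 in placebo and 8.09 to 8.42 in ILPD, a difference of 0.37 without overlap (adjusted p = 0.0556), and it passed without the dimmest probe sets, with array weights and without ILPD array 1 (lowest adjusted p = 0.0350). Eif2b4, a regulatory subunit of eIF2B, differed by -0.20, also without overlap (adjusted p = 0.0718).

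Of the 6 partner transcription factors 0 passed (limma; 1 had an unadjusted p under 0.05), and the median was -0.06 (-0.01 after cyclic loess). Atf5, itself under the same translational control as Atf4, read 8.83 to 8.999 in placebo and 8.52 to 8.75 in ILPD, a difference of -0.24 (limma adjusted p = 0.0914). Atf3, an early stress factor, read 9.93, 10.21 and 12.19 in placebo and 10.07 to 11.45 in ILPD. Placebo array 3 stood apart there, and the difference of -0.02 (95% interval -1.12 to 1.09) became 0.69 without it (adjusted p = 0.368). Cebpb, a C/EBP partner of ATF4, differed by 0.12, Nupr1, a stress-induced chromatin protein, by 0.19 and Jdp2, a repressor of the AP-1 family, by -0.15.

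Downstream, 1 gene of amino acid transport rose. This was Slc7a5 (LAT1), which carries large neutral amino acids and works as a pair with Slc3a2. It read 9.24, 9.05 and 9.91 in placebo and 10.39, 10.63, 10.49, 10.24 and 10.09 in ILPD, a 1.96-fold difference without overlap (0.97, SE 0.18, limma adjusted p = 0.0265). Leaving out placebo array 1 or 2, or ILPD array 2 or 3, took the adjusted p to between 0.0523 and 0.101. Slc3a2 differed by 0.28 (adjusted p = 0.315; 0.42 after cyclic loess), and Slc38a2, which brings in small neutral amino acids, by -0.26 without overlap (adjusted p = 0.154; -0.11 after cyclic loess). Of 9 transporters 1 rose and 0 fell, and 2 had an unadjusted p under 0.05 (limma). Their median was 0.08 (0.02 after cyclic loess, and below 0, at -0.0063, after quantile normalization).

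Among 10 further enzymes of amino acids and one-carbon units 3 had an unadjusted p under 0.05 (limma) and 1 rose, Cth, which makes cysteine. Cth read 6.27, 6.27 and 6.43 in placebo and 6.54 to 6.71 in ILPD, a difference of 0.29 (limma adjusted p = 0.0396). Its call was lost in 10 of 13 alternatives, among them the removal of any single placebo array or of ILPD array 1, 2, 3 or 4 (up to 0.138). The call was also lost after cyclic loess (limma adjusted p = 0.0625) and after quantile normalization (0.0699). Cth was dim, at percentile 31.6 of all probe sets by mean, so the alternative without the dimmest 40% did not hold it. The enzymes that act beside Mthfd2 in mitochondria did not pass. Shmt2, which feeds it with one-carbon units from serine, differed by -0.20 (95% interval -0.39 to -0.02, adjusted p = 0.224), which was -0.11 after cyclic loess. Aldh1l2, which oxidises formyl-tetrahydrofolate in mitochondria, differed by 0.05 (adjusted p = 0.653). Got1, an aspartate aminotransferase, differed by -0.22 (-0.04 after cyclic loess).

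The other target groups held no call. Of 12 aminoacyl-tRNA synthetases, which charge tRNAs with amino acids, 0 passed (limma; 2 had an unadjusted p under 0.05) and 10 had a negative difference, with a median of -0.11 that was -0.04 after cyclic loess. The largest differences were -0.27 for Sars1, -0.18 for Mars1 and -0.15 for Wars1, the last of which was -0.06 after cyclic loess. Of 13 other targets of ATF4 and CHOP 0 passed (limma; 1 had an unadjusted p under 0.05), with a median of -0.02 that was 0.05 after cyclic loess. Ddit4, which restrains mTORC1, differed by 0.38 (limma adjusted p = 0.416). This value was 0.63 without placebo array 1 and 0.08 without placebo array 3. Vldlr, a lipoprotein receptor, differed by -0.28 without overlap (adjusted p = 0.145; -0.18 after cyclic loess) and Stc2 by 0.14. Vldlr passed without ILPD array 5 (0.0472).

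The chaperone arm of the unfolded protein response is driven mainly by ATF6 and XBP1 and not by ATF4. The list of other arms of this response and of chaperones of the endoplasmic reticulum, which also holds Xbp1, Atf6, Syvn1 and Sel1l, had 17 measured genes. Of these, 3 fell and 0 rose (limma, 10 had an unadjusted p under 0.05), against 0.857% of all probe sets called lower in ILPD. Their median was -0.26 (-0.20 after cyclic loess), and 15 differences were negative, as were 11955 of all 28826. Hsp90b1, the Hsp90 of the endoplasmic reticulum, read 12.14 to 12.20 in placebo and 11.52 to 11.79 in ILPD, a fall of 0.50 (limma adjusted p = 0.00799). Pdia4, a disulfide isomerase, fell by 0.64 (adjusted p = 0.0173; 0.0517 without placebo array 3). After cyclic loess the difference was -0.355 for Hsp90b1 and -0.60 for Pdia4, each with a limma adjusted p of 0.0185. Hspa5 (BiP), the main chaperone of that compartment, fell by 0.42 (adjusted p = 0.0358), and its call was lost without any single placebo array, without ILPD array 2 or 4 (0.0686 to 0.123) and after either normalization (-0.25 and adjusted p = 0.112 with cyclic loess). Xbp1 differed by 0.03 (adjusted p = 0.918) and Syvn1 by 0.22 (adjusted p = 0.212). No test compared these genes as a group with the members.

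**Figure D4:**
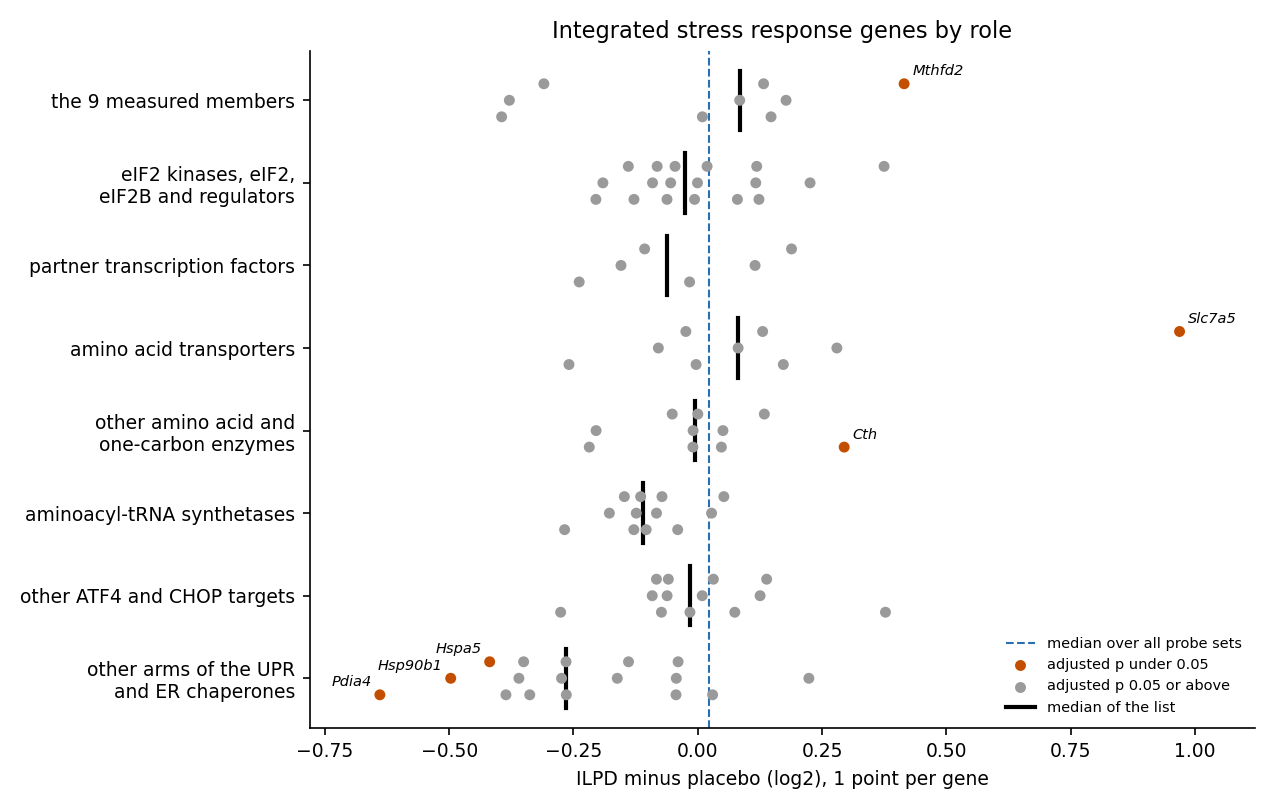
Difference between ILPD and placebo (log2, horizontal axis) for each gene of the members and of 7 further lists, 1 point per gene, with the median of each list (black bar) and of all probe sets (dashed line, 0.02). Genes that passed the test are coloured and named: Mthfd2, Slc7a5 and Cth lie to the right, and Pdia4, Hsp90b1 and Hspa5 to the left.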

How the data were processed

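Total RNA from rat left ventricle was labelled with biotin and hybridised to Affymetrix arrays, per the labels' protocols. The deposited values are log2 expression values, a scale settled from their range; the authors' background correction, summarization and normalization are not given in the sources used here, and R 2.14.2 is named in the submitters' processing notes. No detection signal was used, so no probe set was called undetected. Gene symbols came from the platform annotation, updated through gene IDs in RefSeq (GRCr8), which matched 15178 of 15209 probe sets with 1 symbol. No coordinates of probe sets are given. Promoter sequences are from RefSeq (GRCr8) and were found for all 10 listed genes; the cAMP response element was added after the values had been seen.

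Groups came from sample titles. ILPD was compared with placebo by a two-sided limma fit (version 3.58.1, under R 4.3.3; constant prior, no covariate) of all 28826 probe sets, which was checked on simulated data. Members, lists, alternatives and the naming rule were chosen with earlier results of these data known. That rule took every member, all called genes and the 3 largest differences of each further list, and 8 landmark genes. For other genes the probe set with the highest mean stood for the gene. Tried as alternatives were quantile and cyclic loess normalization, a robust prior with an intensity trend, a block for the replicate number, array weights, removal of the dimmest 40% of probe sets, and removal of each array. Treating the values as linear was not needed. Figures were drawn with matplotlib 3.10.9.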

Additional observations from a re-analysis of the deposited data

Results flagged for a closer look

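Among 38 named probe sets of members and further pathway genes, 1 had an ILPD array far from the other ILPD arrays: Wars1, a tryptophanyl-tRNA synthetase gene, where ILPD array 5 read 10.53 and the other 4 read 10.26 to 10.31. The gap to the nearest array was 0.809 of the group's range, above the critical value for 5 arrays. Chance alone gives such a gap in about 1 of 20 groups. No member probe set had such an array, and the placebo group of 3 is too small for the rule.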

How the results depend on the processing

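The direction of Atf4, Ddit3, Ppp1r15a, Trib3, Chac1, Phgdh and both Mthfd2 probe sets was the same under all 14 alternatives. The count of called probe sets, 811 as deposited, was 484 after quantile normalization and 172 to 975 when single arrays were left out (385, 172 and 241 without placebo array 1, 2 or 3, and 382, 500 and 459 without ILPD array 2, 3 or 4). The count of called member probe sets, 2 as deposited, was 1 after quantile and 1 after cyclic loess normalization, and 0 to 2 without single arrays. For the 85 further genes it was 5 as deposited, 3 after quantile, 3 after cyclic loess and 2 to 6 without single arrays. With the replicate number as a block, 459 probe sets and 0 member probe sets were called (adjusted p of 0.0651 and 0.135 for Mthfd2). In that fit Slc3a2 passed (0.0494), and the calls of Cth (0.148), Hspa5 and Cx3cr1 were lost. Deviations of same-numbered arrays from their group means correlated at 0.221, -0.064 and -0.098 over all probe sets. The best ILPD partners of placebo arrays 1, 2 and 3 were ILPD arrays 1, 3 and 5. As deviations within a group sum to 0 and the arrays are few, these correlations cannot decide whether the numbers pair the arrays. Signs turned for values near 0. Psat1 probe set 10729096 gave -0.072 after quantile normalization, -0.058 with cyclic loess and -0.079 with the replicate block, and -0.0493 to 0.0768 without single arrays. Psat1 probe set 10823611 gave -0.015 with the block and -0.02 to 0.0933 without single arrays. Asns ran from -0.0339 to 0.159 without single arrays, Xbp1 from -0.0775 to 0.1002 and Atf3 from -0.441 to 0.692; Atf3 was also 0.072 with quantile and 0.089 with cyclic loess normalization, and 0.12 under array weights. The causes were not tested. Which probe sets lay near background is not known, since no detection call was used.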

Other observations

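The 3 atrial markers differed between arrays labelled as left ventricle, without a common direction, and none passed the test (limma; 0 had an unadjusted p under 0.05). Myl7, the atrial myosin light chain, read 10.83, 13.18 and 11.85 in placebo and 11.90, 11.54, 11.04, 11.87 and 10.0029 in ILPD, a difference of -0.68 (adjusted p = 0.556). Sln (sarcolipin) read 8.82, 8.54 and 8.28 in placebo and 7.98 to 10.10 in ILPD, a difference of 0.53, and Nppa (atrial natriuretic peptide) read 11.67, 11.20 and 10.87 in placebo and 10.93 to 11.25 in ILPD, a difference of -0.19. Placebo array 2 was the highest placebo array for Myl7, and placebo array 1 was the highest for Sln and Nppa.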
